A study of Mus musculus with 8 samples.

Results

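Solute carriers and ATP-binding cassette (ABC) proteins are the transporter genes described here, in ear skin of adult mice that lost Cdsn, the gene of the adhesion protein corneodesmosin, from the epidermis (KO) and of mice that kept it (WT). Members were chosen by the measured KO against WT difference: they were taken from the authors' deposited table of KO against WT, which holds 3411 of 33793 probe sets, by a gene symbol starting with Slc and a digit, Slco, or Abc with a letter a to g and a digit. Of 56 such entries, Slc7a11, Slc16a3 and Abca12 were left out, which gave 53 genes, 45 solute carriers and 8 ABC genes. Each had 1 probe set, of 14 to 48 probes, and none was of the cross-hybridisation class whose probes also match other transcripts. A probe set entered the table when its log2 difference was at least 0.5 either way and its adjusted p was below 0.05. The KO against WT difference therefore chose every member, and is given below as a description and not as a test. Members of these families outside the table have no name in the files used here.

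The KO mice were KRT14-CreERT2(tg/0)/Cdsnfl/fl and the WT mice KRT14-CreERT2(tg/0)/Cdsnwt/wt, on a background labelled C57B/6J, with 4 mice and 4 arrays per genotype. All were 7 to 12 weeks old and had 100 µg of 4-hydroxytamoxifen put on each ear daily for up to 15 days, so the drug and the keratin 14-driven Cre recombinase were common to both groups. Cre driven by this promoter acts in keratinocytes, whereas the RNA came from whole ear skin. In such bulk tissue, a change in the number of cells of a type and a change in RNA per cell cannot be told apart.

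Solute carriers move ions, sugars, amino acids, nucleosides and metals across membranes by facilitated diffusion or by coupling to an ion gradient. Most ABC proteins pump lipids, drugs or bile salts with energy from ATP hydrolysis, while a few have no transport function. In the epidermis such proteins supply nutrients to keratinocytes, load lipids for the barrier and set ion gradients. Values below are log2 expression values from robust multi-array averaging (RMA), in which 1 unit is a doubling, so a KO minus WT difference of 1 is a 2-fold higher value.

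Cdsn itself had log2 values of 10.31, 8.89, 9.82 and 9.49 in KO and 12.05, 11.76, 12.13 and 12.06 in WT, 19.3% of the WT level on the linear scale (limma adjusted p = 0.00203; exact two-sided permutation p = 0.0286, the lowest possible with 4 arrays against 4). The arrays had median log2 values of 5.52 to 5.59 (KO) and 5.43 to 5.49 (WT). Over all probe sets the median difference was 0.094, and the differences below include that shift. Among the WT arrays, replicate 1 stood apart in the mean of skin markers and in that of neutrophil markers. The mean log2 value of the 6 of 12 suprabasal keratinocyte markers present in the deposited table was 10.7 there, 9.01 to 9.29 for WT replicates 2 to 4 and 10.6 to 11.8 for KO. For 5 of 11 neutrophil markers these values were 7.27, 4.44 to 5.62 and 7.78 to 9.57. Both sets hold only markers that met the table's criteria, so the KO against WT difference of these means was set by that choice. S100a8, S100a9, Ly6g and Cxcr2 were highest in replicate 1 among the WT arrays. The gap was widest for S100a8 (11.57, against 5.65 to 8.03) and S100a9 (9.0, against 3.34 to 6.02). It was smaller for Ly6g (4.12, against 3.05 to 3.58) and Cxcr2 (8.47, against 6.36 to 7.48). The fifth neutrophil marker, Camp, was lowest in WT replicate 1 (3.18, against 3.26 to 3.63). Krt1, a suprabasal keratin, ranked at percentile 99.5 among probe set means.

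Of the 53 transporter genes, 48 were higher in KO and 5 were lower. Over all 33793 probe sets, 7.63% met the same criteria as higher and 2.47% as lower, 10.1% in all. At adjusted p under 0.05 alone, 9.91% were higher and 3.19% lower, 13.1% in all. The members passed these criteria by choice. The median difference of the 48 was 0.68 (range 0.50 to 1.78), beside 0.71 over the 2577 higher entries of the table, and that of the 5 was -0.62 (range -0.82 to -0.50), beside -0.69 over the 834 lower entries. All 4 KO values lay above all 4 WT values for 46 of the 48, and below them for each of the 5. Of all probe sets, 15.9% had every KO value above every WT value and 5.53% had the reverse, 21.5% in all. Of the table's entries, 94.1% of the higher and 97% of the lower had no overlap. The exceptions among the 48 were Slco1a5 and Slc39a2, in which KO replicate 4 lay below the highest WT array. By symbol, the 53 are among 436 RefSeq protein-coding genes that the rule would match, or 12.2%, where 8.02% of all 21900 protein-coding genes had an entry in the table. Which of them have a probe set on the array was not analysed here. A further entry, 2010107G12Rik, carries the symbol Slc23a4 in RefSeq, and was not counted because the rule used the table's symbols.

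**Figure D1:**
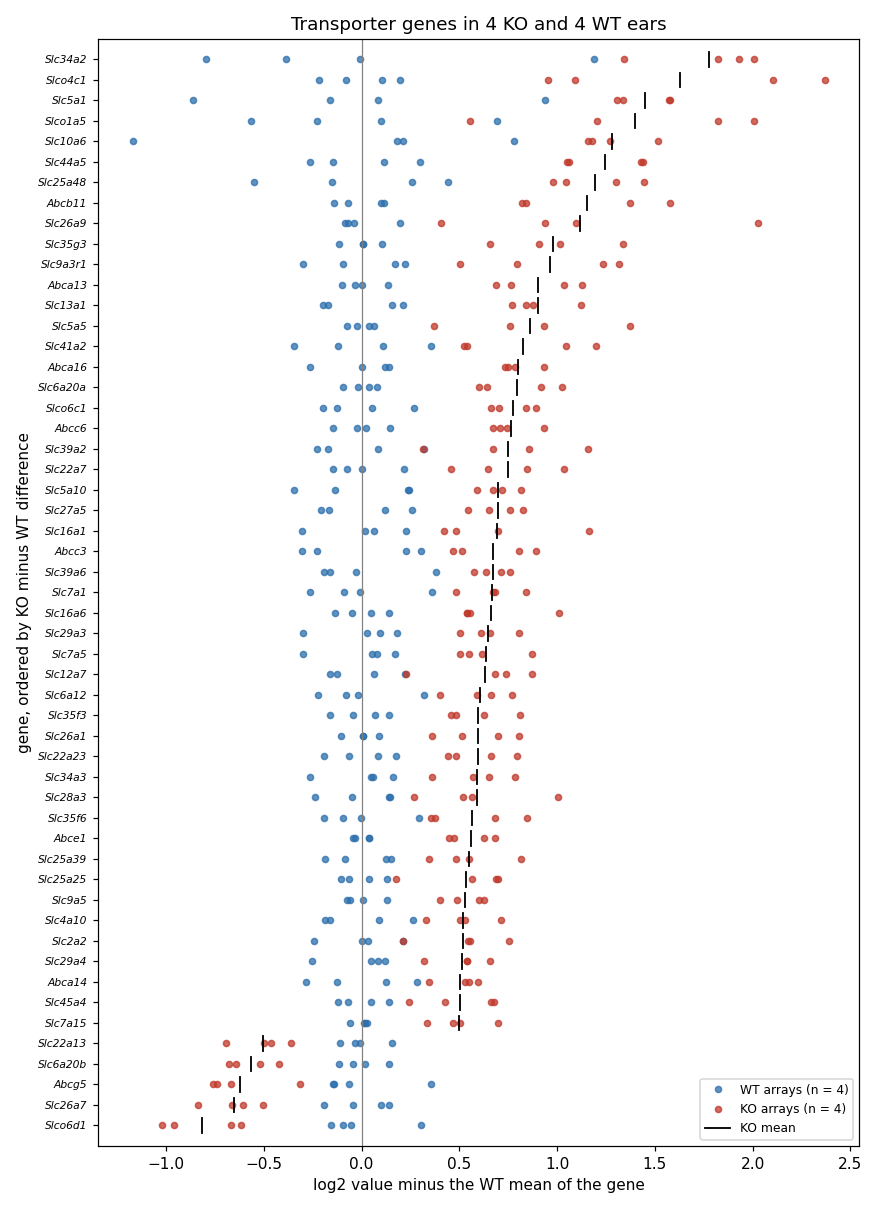
Each line is a transporter gene, ordered by its KO minus WT difference; points are the 4 WT (blue) and 4 KO (red) arrays as log2 value minus the gene's WT mean, and the black bar is the KO mean. The 48 higher genes run from a difference of 1.78 at the top to 0.50, the 5 lower genes reach -0.82, and WT points spread most for Slc34a2, Slc5a1 and Slc10a6.

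The largest difference was that of Slc34a2, the sodium-phosphate cotransporter of lung and gut epithelium. Its KO arrays read 8.48, 8.40, 8.30 and 7.81 in replicate order, and its WT arrays 7.66, 6.47, 6.09 and 5.68. Mean values were 8.25 ± 0.30 and 6.47 ± 0.85 (SD, n = 4 in each group), which differ by 1.78 (SE 0.37) on the log2 scale, or 3.42-fold. No array overlapped, but WT replicate 1 lay only 0.155 below the lowest KO array. Slc34a3, the related cotransporter of kidney, was higher by 0.59 (SE 0.13), from 4.62 ± 0.18 to 5.21 ± 0.18. Its mean ranked at percentile 40.0 among all probe sets. Detection calls were not used, so for dim genes like this one it was not analysed whether the ear makes the transcript.

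Slc5a1 encodes the sodium-glucose cotransporter SGLT1, known from the gut. Its log2 values were 9.29, 9.56, 9.56 and 9.32 in KO and 8.92, 7.12, 7.83 and 8.07 in WT, a difference of 1.45 (SE 0.32), or 2.73-fold. The 4 KO mice lay within 0.27 of each other while the WT mice spread over 1.80, with SDs of 0.15 and 0.74. As for Slc34a2, replicate 1 was the WT array nearest to KO. The other 4 members that carry sugars or belong to the same families were also higher. Slc5a5, the sodium-iodide symporter, was higher by 0.86 (SE 0.19), with KO arrays of 6.74, 6.30, 6.13 and 5.74 above WT arrays of 5.30 to 5.43. Slc5a10, a sugar cotransporter of kidney, differed by 0.70, Slc2a2, the glucose carrier GLUT2 of liver and pancreatic islets, by 0.52, and Slc45a4 by 0.50. Slc5a10 and Slc2a2 had low levels, at percentiles 43.2 and 30.6.

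The starts of Slc34a2 and Slc5a1, the members of largest difference whose level lay above the median probe set, are shown because both lie on chromosome 5 and both had WT replicate 1 nearest to KO. Sequences are from RefSeq (GRCm38.p6) and run from 250 bases before to 50 bases after the start, on the plus strand, at chr5:53049103-53049402 for Slc34a2 and chr5:33103969-33104268 for Slc5a1. Capitals mark a match to any of 6 motifs searched on both strands: TGANTCA (AP-1), TGATGNAA (the core of the amino acid response element), TGACGTCA (the cyclic AMP response element), CACGTG (the E-box), GGGCGG (the GC box) and TATAAA (the TATA box).
Slc34a2: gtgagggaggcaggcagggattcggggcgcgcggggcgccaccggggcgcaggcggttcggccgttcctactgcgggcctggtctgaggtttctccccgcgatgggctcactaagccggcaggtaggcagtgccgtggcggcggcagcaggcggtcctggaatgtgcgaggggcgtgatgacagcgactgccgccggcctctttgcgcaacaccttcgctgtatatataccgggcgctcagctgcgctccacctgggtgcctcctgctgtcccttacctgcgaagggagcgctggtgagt
Slc5a1: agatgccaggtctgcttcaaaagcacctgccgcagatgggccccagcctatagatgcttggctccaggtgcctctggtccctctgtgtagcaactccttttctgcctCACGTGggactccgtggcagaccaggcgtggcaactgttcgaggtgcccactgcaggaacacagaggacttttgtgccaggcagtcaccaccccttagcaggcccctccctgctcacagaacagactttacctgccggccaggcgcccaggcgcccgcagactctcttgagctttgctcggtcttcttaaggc
The Slc5a1 start held 1 E-box and the Slc34a2 start none of the 6 motifs in these letters. Their GC contents were 60.3% and 68.7%, beside a median of 52.7% over all promoters in the table. The table held a start for 43 of the 53 members. Of these 43, 3 held the E-box (6.98%, and 7.24% of all 27025 promoters), 4 the AP-1 motif (9.30%, and 7.93%), 19 the GC box (44.2%, and 35.9%) and 7 the TATA box (16.3%, and 14.2%). The AP-1 motif was found in Slc4a10, Slc26a1, Slc7a1 and Slc6a12, the amino acid element in Abca13 and the cyclic AMP element in Abce1. Those last motifs occurred in 4.06% and 1.88% of all promoters.

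**Figure D2:**
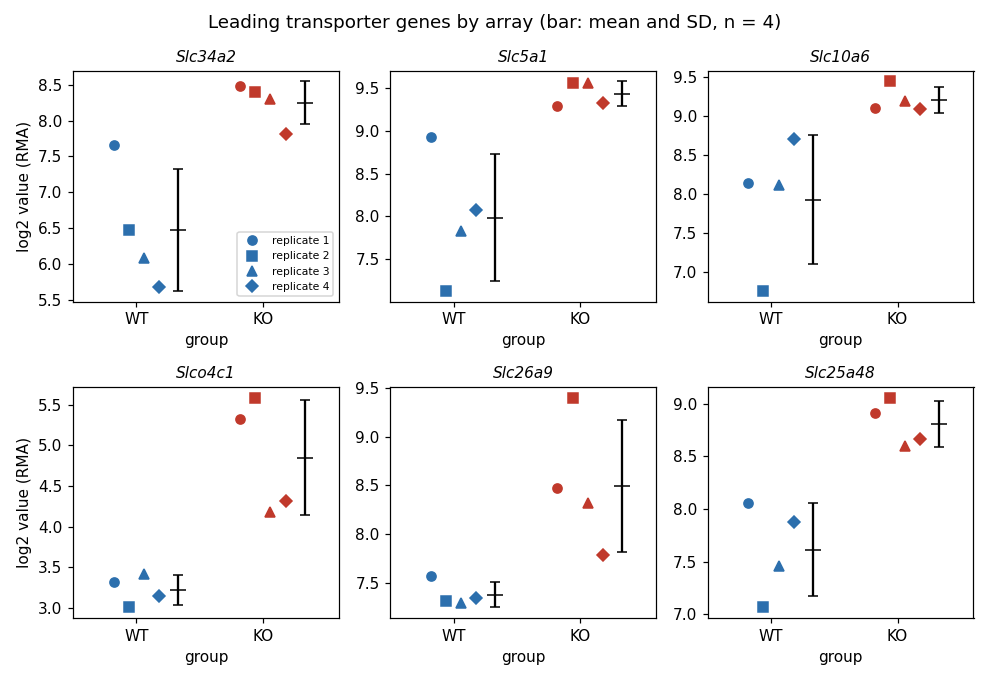
Log2 value of 6 leading genes in each array, WT in blue and KO in red, with marker shape for the replicate number and a bar for the mean and SD of 4 arrays. WT replicate 1 is the highest WT array for Slc34a2, Slc5a1, Slc26a9 and Slc25a48. WT replicate 2 is the lowest for Slc5a1, Slc10a6, Slco4c1 and Slc25a48. KO replicates 1 and 2 lie above 3 and 4 for Slc34a2, Slco4c1, Slc26a9 and Slc25a48.

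Organic ion carriers, which take up bile salts, conjugated hormones and drugs, had the most members of any role, 7 of 41 RefSeq genes. Of the 7, 5 were higher and 2 lower. Slco4c1, an organic anion carrier of kidney, was higher by 1.63 (SE 0.31), or 3.09-fold. It read 5.33, 5.59, 4.18 and 4.31 in KO and 3.32, 3.005, 3.42 and 3.14 in WT, so KO replicates 1 and 2 stood more than 1 unit above the other KO arrays. Slco1a5 also had its highest values in KO replicates 1 and 2, with KO values of 6.35, 6.17, 5.55 and 4.90 against 5.04, 4.12, 3.78 and 4.45 in WT, a difference of 1.40 (SE 0.35). Here KO replicate 4 lay below WT replicate 1, and the groups overlapped.

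Among the SLC22 organic ion carriers, Slc22a7, which carries organic anions in liver and kidney, was higher by 0.75 (SE 0.15). Slc22a23, which has no settled substrate, was higher by 0.59 (SE 0.13). Slc22a13, an organic anion carrier of kidney, was lower by a difference of -0.50 (SE 0.11), with KO arrays of 4.94 to 5.27 and WT arrays of 5.52 to 5.79. Slc22a23 lay at percentile 92.7 of mean value, and the other 6 of the role lay below the median probe set. Slc22a7 is on chromosome 17, as Cdsn is, so linked alleles that came with the floxed allele cannot be told apart from the loss of Cdsn for this gene.

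Some neighbouring genes had differences of opposite sign. Slc6a20a encodes a carrier of proline and other imino acids. Slc6a20a and the related Slc6a20b lie on chromosome 9 with no protein-coding gene between them in the RefSeq annotation. Slc6a20a read 9.15, 8.76, 9.04 and 8.72 in KO and 8.16, 8.03, 8.20 and 8.10 in WT, a difference of 0.80 (SE 0.12). Slc6a20b read 4.75, 4.97, 4.87 and 4.71 in KO and 5.27, 5.41, 5.53 and 5.35 in WT, a difference of -0.57 (SE 0.11). The groups were apart for both genes, in opposite directions. Slc6a20b lay at percentile 43.6, so its array signal was low. A probe set reads near-identical copies separately only where its probes differ, and neither was of the cross-hybridising class. On chromosome 1, Slco4c1 and Slco6c1 are neighbours, and Slco6d1 follows after 6 other protein-coding genes. Slco6c1 was higher by 0.78 (SE 0.13), with a KO range of 3.23 to 3.46 and a WT range of 2.37 to 2.83. Slco6d1 had the largest negative difference of all members, -0.82 (SE 0.14), with KO arrays of 2.84, 2.43, 2.49 and 2.78 and WT arrays of 3.40, 3.35, 3.76 and 3.30. Slco6c1 and Slco6d1 lay at percentiles 11.4 and 12.4 of mean value. Abca14 and Abca16, with 1 gene between them on chromosome 7, were both higher, by 0.50 and 0.80.

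The starts of the Slc6a20 pair are printed because these adjacent copies had differences of opposite sign. They are from RefSeq (GRCm38.p6), minus strand, at chr9:123678783-123679082 for Slc6a20a and chr9:123632489-123632788 for Slc6a20b, with capitals for the motifs named above.
Slc6a20a: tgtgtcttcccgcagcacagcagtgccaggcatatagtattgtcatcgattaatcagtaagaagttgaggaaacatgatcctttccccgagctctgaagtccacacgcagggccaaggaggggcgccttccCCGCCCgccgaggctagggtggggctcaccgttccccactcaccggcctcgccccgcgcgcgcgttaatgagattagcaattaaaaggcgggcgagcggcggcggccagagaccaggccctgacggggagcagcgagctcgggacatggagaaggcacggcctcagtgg
Slc6a20b: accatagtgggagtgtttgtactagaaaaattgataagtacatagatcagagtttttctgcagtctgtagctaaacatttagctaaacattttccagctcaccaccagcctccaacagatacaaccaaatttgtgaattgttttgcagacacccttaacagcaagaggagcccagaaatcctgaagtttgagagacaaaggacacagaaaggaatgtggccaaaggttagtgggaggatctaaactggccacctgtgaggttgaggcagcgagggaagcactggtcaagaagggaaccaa
Slc6a20a had a GC box, read here on the opposite strand, and a GC content of 62.3%. Slc6a20b had none of the 6 motifs in this window and a GC content of 44.0%.

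**Figure D3:**
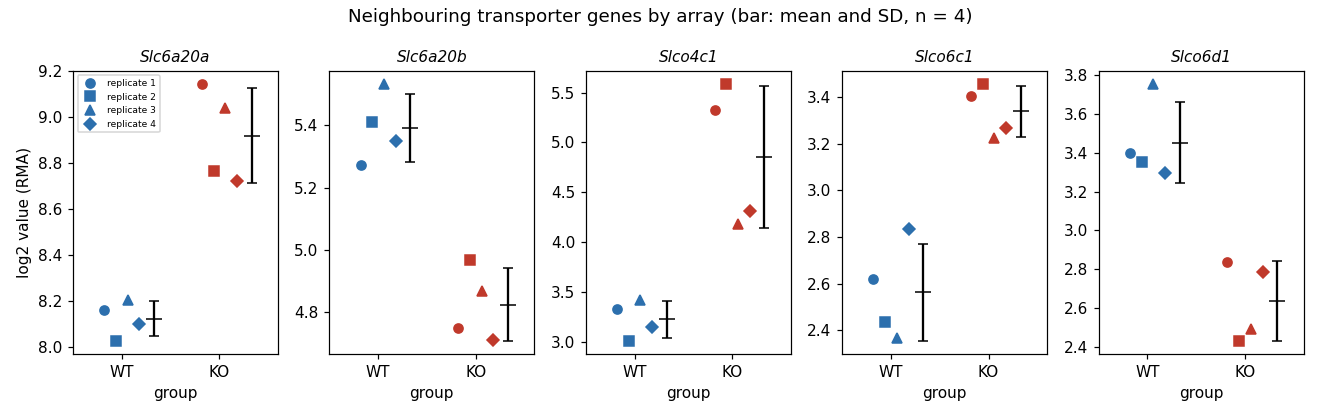
Log2 value per array for the adjacent pair Slc6a20a and Slc6a20b and for Slco4c1, Slco6c1 and Slco6d1 of chromosome 1, WT in blue and KO in red, marker shape for the replicate number, bar for mean and SD of 4 arrays. Slc6a20a differs by 0.80 and Slc6a20b by -0.57, and Slco6d1 is lower by a difference of -0.82 while Slco4c1 and Slco6c1 are higher.

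Apart from the SLC6 family, the amino acid carriers among the members were 3 genes of the SLC7 family, all higher. Slc7a5, the light chain of the large neutral amino acid transporter LAT1, read 10.69, 10.33, 10.37 and 10.44 in KO and 9.90, 9.52, 9.88 and 9.99 in WT, a difference of 0.63 (SE 0.13). Slc7a1, the cationic amino acid carrier CAT1, read 8.57, 8.73, 8.37 and 8.56 in KO and 8.25, 7.62, 7.80 and 7.88 in WT, a difference of 0.67 (SE 0.15). Every KO array lay above every WT array in both. Slc7a15 differed by 0.50 (SE 0.10) and was the member nearest the threshold. Slc6a12, the betaine carrier by which cells take up an osmolyte, was higher by 0.61 (SE 0.14).

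The SLC16 and SLC13 families, among them carriers of monocarboxylates and of sulfate, had 3 members, all higher. Slc16a1, the lactate carrier MCT1, read 9.80, 9.33, 9.05 and 9.12 in KO and 8.69, 8.86, 8.65 and 8.33 in WT, a difference of 0.69 (SE 0.18). Slc16a6, a relative of MCT1, was higher by 0.66 (SE 0.13). In both genes KO replicate 1 was the highest array. Slc13a1, a sulfate carrier of kidney, differed by 0.90 (SE 0.14) at a low level, percentile 19.4.

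Anion carriers of the SLC4 and SLC26 families had 3 higher members and 1 lower. Slc26a9, an epithelial chloride carrier, was higher by 1.12 (SE 0.29), or 2.17-fold. It read 8.47, 9.40, 8.32 and 7.78 in KO and 7.57, 7.31, 7.29 and 7.34 in WT. The WT mice were close together, while KO replicate 2 lay above all other arrays. Its relative Slc26a7 was lower by a difference of -0.65 (SE 0.12), with KO arrays of 4.67 to 4.999 and WT arrays of 5.31 to 5.64. Slc26a1, a sulfate carrier, was higher by 0.59, and Slc4a10, a sodium-bicarbonate carrier of neurons, by 0.52. Slc26a7, Slc26a1 and Slc4a10 lay below the median probe set.

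Among carriers of sodium, potassium and protons, Slc12a7, the potassium-chloride cotransporter KCC4, was higher by 0.63 (SE 0.16) and Slc9a5, a sodium-proton exchanger of brain, by 0.53 (SE 0.10). Slc9a3r1 bears a solute carrier symbol but encodes the scaffold protein NHERF1, which anchors ion carriers under the cell membrane. It read 9.36, 9.27, 8.84 and 8.54 in KO and 8.26, 7.74, 7.95 and 8.21 in WT, a difference of 0.96 (SE 0.20).

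The metal carriers among the members were 3 genes, all higher. Slc41a2, a magnesium carrier, differed by 0.83 (SE 0.20), with 7.56, 7.71, 7.06 and 7.04 in KO and 6.87, 6.63, 6.40 and 6.17 in WT. The zinc importer Slc39a2 (ZIP2) differed by 0.75 (SE 0.19), from 5.99 ± 0.25 to 6.74 ± 0.35. Its lowest KO array, 6.30, lay just under the highest WT array, 6.31. Slc39a6 (ZIP6), also a zinc importer, differed by 0.67 (SE 0.14), with 10.15, 9.96, 10.10 and 10.03 in KO and 9.77, 9.36, 9.23 and 9.20 in WT.

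Lipid and steroid carriers outside the ABC family were led by Slc10a6, which carries sulfated steroid hormones. Its KO arrays, at 9.10, 9.44, 9.19 and 9.08, were close to each other. Its WT arrays, at 8.13, 6.75, 8.10 and 8.70, were not. The difference was 1.28 (SE 0.35), and 0.89 without WT replicate 2, the lowest array. Slc27a5, which activates bile acids and fatty acids in liver, was higher by 0.70 (SE 0.13) at percentile 34.8.

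Nucleoside and choline carriers had 4 members, all higher. Slc44a5, of the choline carrier family, had the smallest adjusted p among members, with 4.81, 4.82, 4.43 and 4.44 in KO and 3.49, 3.23, 3.11 and 3.68 in WT, a difference of 1.25 (SE 0.16). It lay at percentile 24.6. The nucleoside carriers Slc29a3, which acts in lysosomes, and Slc28a3, which couples uptake to sodium, differed by 0.64 (SE 0.13) and 0.59 (SE 0.17). Slc29a4, a carrier of monoamines, differed by 0.51. Slc29a3 read 9.39 to 9.69 in KO and 8.58 to 9.07 in WT, without overlap.

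Mitochondrial carriers are the largest solute carrier family, with 47 RefSeq genes, and had 3 members here. Over all genes that the rule would match, the share was 12.2%. Slc25a48 was higher by 1.19 (SE 0.21), or 2.28-fold, with 8.92, 9.06, 8.59 and 8.66 in KO and 8.06, 7.07, 7.46 and 7.88 in WT. Slc25a39, needed for glutathione in mitochondria, differed by 0.55 (SE 0.13). Slc25a25, the ATP-magnesium/phosphate carrier, differed by 0.53 (SE 0.14). The SLC35 family, many of whose members carry nucleotide sugars into the Golgi, had Slc35g3 at 0.98, Slc35f3 at 0.60 and Slc35f6 at 0.56. Slc35g3 read 5.85, 5.53, 5.17 and 5.42 in KO and 4.62, 4.52, 4.40 and 4.52 in WT.

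The 8 ABC genes were 7 higher and 1 lower. Abce1, which recycles ribosomes after translation and does not transport, had the least spread among WT arrays after Slc7a15: it read 11.44, 11.38, 11.23 and 11.21 in KO and 10.80, 10.79, 10.72 and 10.71 in WT. The difference was 0.56 (SE 0.10), beside SDs of 0.12 in KO and 0.045 in WT. Abcb11, the bile salt export pump of hepatocytes, differed by 1.15 (SE 0.18), with 4.44, 4.65, 3.89 and 3.91 in KO and 2.93 to 3.18 in WT. It lay at percentile 19.9. The exporters Abcc3 and Abcc6, of the multidrug resistance protein family, differed by 0.67 (SE 0.17) and 0.76 (SE 0.11). Abcc6 ranged over 6.03 to 6.29 in KO and 5.21 to 5.51 in WT. Abcc3 ranged over 7.39 to 7.82 and 6.62 to 7.23, again without overlap.

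Of the A subfamily, whose best known members move lipids, Abca13 differed by 0.90 (SE 0.12), Abca16 by 0.80 (SE 0.12) and Abca14 by 0.50 (SE 0.14), all under percentile 20 of mean value. Abcg5, one of the pair of half-transporters that export plant sterols and cholesterol, was lower by a difference of -0.62 (SE 0.15), with 3.89, 3.91, 3.98 and 4.34 in KO and 4.51, 4.51, 5.01 and 4.59 in WT. It lies on chromosome 17 like Cdsn, so the same holds for it.

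Taken as medians over the 48 higher genes, KO replicates 1 and 2 and WT replicate 1 were the highest arrays of their groups, though many single genes had another order. Measured from each gene's WT mean, the median was 0.82 in KO replicate 1, 0.80 in replicate 2, 0.66 in replicate 3 and 0.61 in replicate 4. It was 0.12 in WT replicate 1, -0.12 in WT replicate 2, -0.06 in WT replicate 3 and -0.006 in WT replicate 4. KO replicate 1 or 2 held the highest value for 41 of the 48 (85.4%, and 67.4% of the table's 2577 higher entries). Both lay above replicates 3 and 4 for 26 (54.2%, and 36.9%). WT replicate 1 was the highest WT array for 24 (50%, and 36.8%). These shares are descriptions, since genes of 1 array share its variation.

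The same arrays ranked high in the means of the keratinocyte and of the neutrophil markers. The 6 suprabasal markers averaged 11.8, 11.4, 11.1 and 10.6 in KO, and the 5 neutrophil markers 9.57, 9.22, 7.78 and 7.95, in replicate order. Of 9 mast cell markers, 3 were in the table and averaged 7.38 to 8.98 in KO and 5.55 to 6.06 in WT. Of 16 skeletal muscle markers, Tnnc2 and Mylk4 were in the table, both lower, averaging 7.41 to 8.43 in KO and 8.57 to 9.51 in WT. The markers of adipocytes, sebaceous gland, melanocytes and macrophages had no entry in the table. Of the nerve, erythroid, endothelial and basal keratinocyte markers, 1 each had one. Beside these counts, 10.1% of all probe sets met the table's criteria, 7.63% as higher and 2.47% as lower. Markers in the table were chosen by its KO against WT criteria, so the group difference of these means was set beforehand. Markers outside it were not averaged. The part of these cell types in the transporter differences was not tested.

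For each gene, the place of WT replicate 1 between the mean of the other 3 WT arrays, at 0%, and the KO mean, at 100%, was computed. Over the 48 higher genes its median was 20.8%, beside 9.27% over the table's higher entries. It passed 50% for 8 genes: Slc34a2 at 72.9%, Slc5a1 at 71.0%, Slc39a6 at 63.8%, Slc7a1 at 61.1%, Slc35f6 at 58.8%, Slc4a10 at 57.4%, Slco1a5 at 56.8% and Abcc3 at 52.8%. It was above 0% for 40 of the 48. The 8 others, in which WT replicate 1 lay farther from KO than the mean of the other WT arrays, were Abca14 at -93.2%, Slc25a25 at -28.2%, Slc45a4 at -19.1%, Slc6a12 at -17.9%, Slc9a5 at -16.2%, Abcc6 at -4.02%, Slc5a5 at -3.57% and Abca13 at -0.10%. Slc6a20a (6.22%), Slco4c1 (8.17%) and Abce1 (9.06%) lay slightly above 0%. Without WT replicate 1, 43 of the 53 genes stayed under adjusted p 0.05, as did 10.4% of all probe sets, where 13.1% were called with all 8 arrays, and the median over the 53 was 0.71 in place of 0.67.

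**Figure D4:**
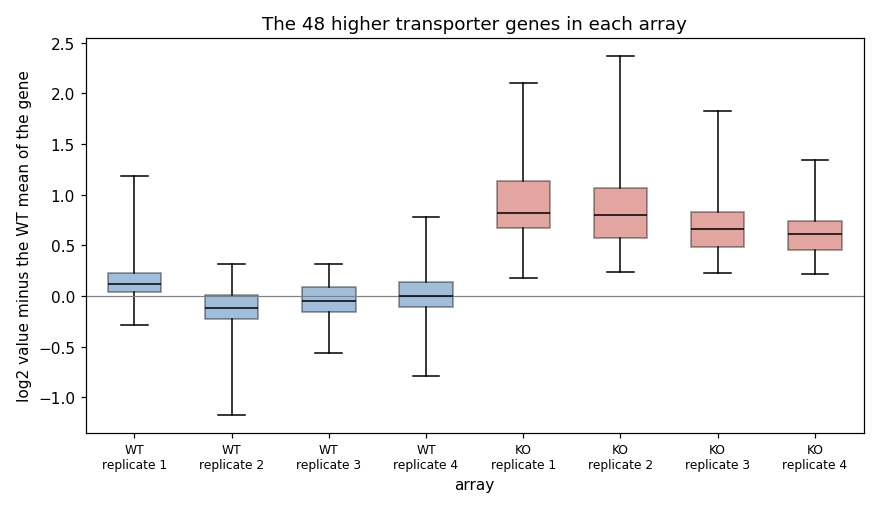
Log2 value minus the gene's WT mean for the 48 higher transporter genes in each of the 8 arrays; boxes span the quartiles, the black line is the median and whiskers reach the lowest and highest gene. Medians run from -0.12 in WT replicate 2 to 0.12 in WT replicate 1 and from 0.61 in KO replicate 4 to 0.82 in KO replicate 1.

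Calls from here on are at adjusted p under 0.05 alone, whatever the size of the difference. Of the 53 genes, 25 stayed called whichever of the 8 arrays was dropped, beside 5.19% of all probe sets. Of the table's entries, 48.8% of the higher and 53.2% of the lower did. The 25 included Slco4c1, Slc44a5, Slc25a48, Abcb11, Slc35g3, Slc6a20a, Slc6a20b, Slc7a5, Abce1 and Slco6d1. Slc34a2 and Slc5a1 lost the call without KO replicate 2 or WT replicate 3, with limma adjusted p of at most 0.0529 and 0.0574. Slc9a3r1 lost it without KO replicate 2 (0.0512), and Slc22a13 without WT replicate 3 (0.0518). Slc7a1 lost it in 3 fits, those that dropped KO replicate 2 and WT replicates 2 and 3, with at most 0.0610. Slc5a10 and Slc22a23 lost it in 2 fits, Slc5a5 and Slc34a3 in 3, Slc25a39 in 4, and Slc41a2, Abcc3, Slc6a12, Slc35f6 and Slc29a4 in 5, with at most 0.104. Slco1a5, Slc10a6, Slc26a9, Slc39a2, Slc16a1, Slc12a7, Slc4a10, Slc45a4 and Abcg5 lost it in 6 of the 8 fits, with at most 0.106. Slc28a3, Slc25a25, Slc2a2 and Abca14 lost it in 7, with at most 0.114. The direction held in each of these fits for all 53. Where the groups did not overlap, as in 51 of them, dropping 1 array cannot change it. The fewest genes stayed called without KO replicate 2, 28 of 53 beside 6.39% of all probe sets, and without WT replicate 3, 29 beside 6.91%. Without KO replicate 1 or WT replicate 2 it was 34 each, beside 8.14% and 6.75%.

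Signal level was set beside the calls. Of the 48 higher genes, 19 (39.6%) had a mean below the median probe set, 5.50, beside 69.7% of the table's higher entries. All 5 lower genes were below it, beside 81.8% of the lower entries. Of the 19 dim higher genes, 13 were called in all 8 fits with an array left out, and of the 29 brighter ones, 9. Their median SEs were 0.14 and 0.15. Together 22 of the 48 were called in all 8 (45.8%), beside 48.8% of the table's higher entries. The share by signal level was not computed for other probe sets, so the counts by level describe these genes only.

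**Figure D5:**
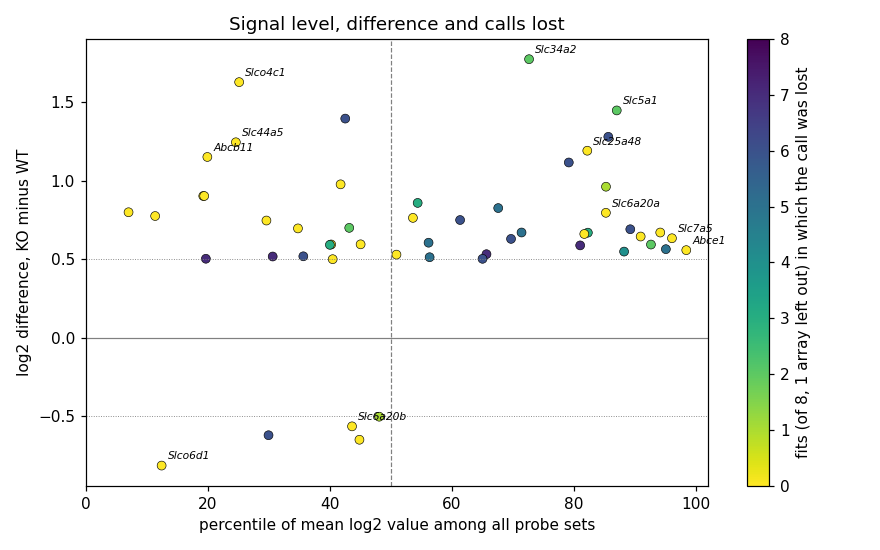
KO minus WT log2 difference of each transporter gene (vertical) against the percentile of its mean log2 value among all probe sets (horizontal), coloured by the number of the 8 fits with 1 array left out in which the call was lost. Dotted lines mark the threshold of 0.5 and the dashed line the median probe set; the 5 lower genes all lie left of it.

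The direction of the differences kept under both rescalings, but the calls did not. After quantile normalization, which set the median difference over all probe sets to -0.021, all 48 higher and 5 lower genes kept their sign. Of the 48, 28 stayed called (58.3%, and 63.8% of the table's higher entries). Some of the 28 then had a difference under 0.5, such as Abce1 at 0.395 and Slc29a3 at 0.491. All 5 lower genes stayed called, as did 100% of the table's lower entries. Of all probe sets 10.2% were called. After median centring 32 of the 48 and all 5 stayed called, beside 10.1%. Without moderation of the variances 32 of the 53 genes were called, beside 9.60% of all probe sets, and with array weights all 53, beside 13.5%. With the replicate number as a block 51 were, beside 15.2%, and when dim probe sets were dropped 17 of 29 tested genes were, beside 4.25% of 16896 probe sets. Slc34a2, Slc5a1, Slco4c1 and Slc25a48 were among the genes called under both rescalings. Slc10a6, Slc26a9, Slc39a2, Slc16a1 and Abcc3 were among those called under neither.

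Among partner proteins and related channels, Aqp3 and Scnn1b were in the deposited table as higher, and none was listed as lower. Aqp3, the water and glycerol channel of keratinocytes, read 12.10, 12.36, 11.86 and 11.82 in KO and 11.63, 10.75, 10.74 and 11.23 in WT, a difference of 0.95. Scnn1b, a subunit of the epithelial sodium channel, differed by 1.06. Of 29 regulators, Hif1a, the oxygen-regulated factor, was higher by 1.09 and Ppard, a lipid-sensing nuclear receptor of keratinocytes, by 0.90. Trib3, a target and brake of the amino acid stress response, was lower by a difference of -0.76, with 6.25 to 6.58 in KO and 6.86 to 7.37 in WT. These genes too were named only because they met the table's criteria, so they say nothing of the lists as a whole.

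The members just inside the threshold were Slc7a15 at 0.5003 and Slc22a13 at -0.5044. The nearest called probe sets outside it, which have no name, were at 0.49996 and -0.4993, among 1017 called probe sets with smaller differences. On the p side, Slc28a3 had an adjusted p of 0.0478, and the nearest probe set that missed had 0.05002.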

How the data were processed

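Ear skin RNA of 8 mice was hybridised to Affymetrix Gene Mouse 2.0 ST arrays, per the file headers. The log2 values that the authors deposited, for 33793 probe sets, come from RMA according to the submitters' processing notes, and its version and options are not given. A second file the authors deposited lists 3411 probe sets with mean log2 values, a linear fold ratio, p-values and adjusted p-values. Other annotation columns that the authors deposited, the probe number and cross-hybridisation class, were used as given. All 3411 met adjusted p under 0.05 and a log2 difference of at least 0.5 in the fit below, and its p-values differed from it by a ratio of at most 1 plus 1.01e-07.

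KO and WT were compared by a limma fit (version 3.58.1, R 4.3.3) over the whole table of 33793 probe sets. Variances were moderated by empirical Bayes, p-values are two-sided and Benjamini-Hochberg adjusted over the table, and the fit was tested on simulated data. The number of arrays limits the precision. SEs are from that fit. All 53 members matched RefSeq (GRCm38.p6) by accession. No genome build is stated for the deposited table, so RefSeq coordinates are given only with the sequences printed. No value column lacked a sample. Members, roles, lists and motifs were chosen with earlier results of these data known. Named by rule were the 12 largest rises, all 5 lower genes, the largest of each role, those nearest the threshold, Cdsn and the list genes in the table; other members are named to account for them. A result that the rule would name is not reported here. Python 3.11.15, pandas 2.3.3, numpy 2.4.6, scipy 1.17.1 and matplotlib 3.10.9 were used. Alternatives were quantile normalization, median centring, no moderation, leaving out dim probe sets, array weights, a replicate block and leaving out each array.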

Additional observations from a re-analysis of the deposited data

Results flagged for a closer look

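In 4 of 106 groups of 4 arrays (53 genes, KO and WT), 1 array stood apart from the other 3 by more than Dixon's 95% critical value, which chance passes in about 1 group in 20. They were WT replicate 1 for Slc26a9 (7.57, above 7.29 to 7.34), KO replicate 1 for Slc16a6 (8.84, above 8.37 to 8.39), WT replicate 3 for Slc7a15 (4.63, below 4.70 to 4.71) and WT replicate 3 for Abcg5 (5.01, above 4.51 to 4.59).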

How the results depend on the processing

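All 53 transporter genes kept their direction under quantile normalization, median centring, no moderation, array weights and a replicate block. They also kept it with each array left out, and the 29 tested without dim probe sets kept theirs. Much of this was set beforehand. Dropping the moderation or the dim probe sets, or adding the replicate block, leaves each difference unchanged. Members were also chosen for a difference of at least 0.5 either way. Fewer stayed called: 33 after quantile normalization, 37 after median centring, 32 without moderation, 17 of 29 with dim probe sets left out (718 probe sets called in all, in place of 4428) and 28 to 45 with 1 array left out; all 53 did with array weights. The calls over all probe sets moved too, from 13.1% to 10.2%, 10.1%, 9.60% and 4.25% under the first 4 of these settings and to 13.5% with array weights. The lowest counts were 28 without KO replicate 2 and 29 without WT replicate 3, followed by 34 without KO replicate 1 and 34 without WT replicate 2; the probe sets called in all ranged from 2161 (without KO replicate 2) to 3504. The cause of these changes was not tested. Fits with an array left out had fewer arrays, and the fit without dim probe sets had fewer probe sets. The median difference over members stayed at 0.53 to 0.71. Higher probe sets made up 75.7% of all calls; quantile normalization lowered this to 49.1% and median centring to 53.2%. Cdsn was called in every fit, with -2.60 to -2.13 when an array was left out. The median place of WT replicate 1 was 20.7% as deposited, 24.0% after quantile normalization and 15.2% after median centring, both chosen after seeing the data.

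Same-numbered arrays had correlated deviations in some pairs and not in every pair (0.548, -0.0624, 0.276 and 0.304 for replicates 1 to 4). Pairs of unlike number ranged from -0.486 to 0.302. Whether a replicate number marks a shared batch or a pairing was not tested. With the replicate block, 51 of 53 genes and 5150 probe sets were called; Slc10a6 (limma adjusted p = 0.0519) and Abca14 (0.0606) were not. Each gene had 1 probe set, so there was nothing to average. Leaving out class 3 probe sets was not run: no member is of that class, and the files used here give the class of the deposited table's entries only, so its effect on the adjustment over all probe sets was not analysed. Low signal limits 24 of the 53 genes, whose means lie below the median probe set.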
